A study of Mus musculus with 4 samples.

Results

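Caveolae and the diaphragms of endothelial openings are built by a small set of proteins, and the RNA of 9 genes that encode them was followed in endothelial cells of mouse tumours. The genes were chosen by name: the diaphragm gene Plvap, the caveolin genes Cav1 and Cav2, the cavin genes Cavin1, Cavin2 and Cavin3, the EHD genes Ehd2 and Ehd4, and Pacsin2. All 9 were found among the 55367 gene names of the deposited table, and all 9 passed the filter on low counts that left 16945 genes for testing. The filter did not act on them, since the lowest count of any of the 9 in any library was 676 reads (Cav2 in control IgG replicate 2).

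RNA came from CD31+CD45- cells sorted from subcutaneous KPC tumours, grown from cells of a mouse pancreatic cancer line injected under the skin of C57BL/6 mice. The control group received control Rat IgG and the other group anti-CD93 antibody, an antibody against a transmembrane receptor of endothelial cells, in both cases 48 hours before the cells were taken. No genetic change of the mice is given in the labels, and their age is not given either. Each group held 2 libraries. Whether these came from separate mice or from pools is not in the labels, so p-values cover only the spread among them. Every fold change sets anti-CD93 over control IgG, and paired values are listed with replicate 1 first and replicate 2 second.

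Caveolae are flask-shaped pits of the plasma membrane that endothelial cells carry in large numbers. Caveolins insert into the inner leaflet of the membrane, cavins coat the pit from the cytoplasm, and EHD and PACSIN proteins shape and hold its neck. PLVAP is the protein of the thin diaphragms that close the necks of endothelial caveolae and span the fenestrae of permeable capillaries, and it is used as a marker of tumour vessels and of other leaky vessels.

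The start regions of the caveolin and cavin genes are shown because the members of each pair differed in the level and in the base composition of their RNA, as described below. Cav2 and Cav1 lie on the same strand of chromosome 6, and the annotated end of Cav2 is 17219 bases before the annotated start of Cav1. Windows of 300 bases, 250 before and 50 after a start site, came from RefSeq (GRCm38.p6). They matched 7 of the 9 genes in 11 windows, and Plvap and Cavin3 were not matched. The RefSeq start sites of the Cavin1 windows lay 272 and 270 bases inside the gene as counted. The window at 272 is printed, and it lies inside that gene. Capitals mark the GC box (GGGCGG, or CCGCCC on the other strand) and the letters of the TATA box (TATAAA, or TTTATA on the other strand).
Cav2, chr6:17280935-17281234, plus strand: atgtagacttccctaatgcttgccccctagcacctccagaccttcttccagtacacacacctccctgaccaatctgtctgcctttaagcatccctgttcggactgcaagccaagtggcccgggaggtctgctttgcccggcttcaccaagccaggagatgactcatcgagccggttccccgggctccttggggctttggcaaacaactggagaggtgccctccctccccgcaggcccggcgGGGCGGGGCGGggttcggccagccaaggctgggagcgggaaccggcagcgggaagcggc
Cav1, chr6:17306085-17306384, plus strand: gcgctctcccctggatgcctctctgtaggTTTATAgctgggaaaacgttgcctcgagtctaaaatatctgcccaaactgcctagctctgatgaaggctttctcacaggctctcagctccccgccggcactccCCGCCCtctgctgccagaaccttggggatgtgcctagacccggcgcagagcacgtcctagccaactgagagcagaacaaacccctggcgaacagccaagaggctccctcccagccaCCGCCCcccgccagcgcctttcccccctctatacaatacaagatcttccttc
Cavin1, chr11:100970566-100970865, minus strand: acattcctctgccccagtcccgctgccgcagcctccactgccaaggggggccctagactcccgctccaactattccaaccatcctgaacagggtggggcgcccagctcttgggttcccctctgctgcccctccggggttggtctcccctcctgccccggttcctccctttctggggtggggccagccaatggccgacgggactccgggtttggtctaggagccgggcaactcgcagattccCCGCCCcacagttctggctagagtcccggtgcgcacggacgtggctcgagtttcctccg
Cavin2, chr1:51288876-51289175, plus strand: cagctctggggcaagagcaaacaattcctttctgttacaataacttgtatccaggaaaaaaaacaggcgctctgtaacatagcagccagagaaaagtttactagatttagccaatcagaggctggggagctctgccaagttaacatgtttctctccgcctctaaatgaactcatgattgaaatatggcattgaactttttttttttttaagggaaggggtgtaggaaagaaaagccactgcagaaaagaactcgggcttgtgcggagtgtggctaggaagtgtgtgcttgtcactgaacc
The GC box stood in 7 of the 11 windows and in at least 1 window of 6 of the 7 matched genes, and the Cavin2 window was the exception. The overlapping Cavin1 windows, from 100970566 and from 100970568, hold the same copy, which is counted in both. Of 32851 RefSeq windows of the same length, 35.7% held it, a share of windows and not of genes. The 2 copies in the Cav2 window overlap by their shared base. The letters of the TATA box stood in 1 of the 11 windows, against 13.6% of all windows. This was the printed Cav1 window, where they lie on the other strand from position -221 relative to the start site, while TATA boxes that act on a start lie close before it. The other Cav1 window held none. The longer form CCGGAA (or TTCCGG) of an ETS site was in 0 of the 11, against 14.9% of all. Shorter or other forms of ETS sites were not counted, so the windows may still hold them. The Cavin2 window had 4 CpG dinucleotides and a GC content of 43.3%, against 16 and 64.3% for Cav2, 13 and 59.3% for Cav1 and 18 and 67.0% for Cavin1. The medians of all RefSeq windows were 7 and 52.7%.

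The sorted cells carried endothelial RNA. All 10 endothelial markers (Pecam1, Cdh5, Kdr, Tie1, Tek, Cldn5, Egfl7, Erg, Emcn and Esam) were detected, and their summed level was 7897 and 9382 CPM in the control libraries and 7692 and 7651 CPM in the treated ones. CPM stands for reads per 1e6 reads of the tested genes, scaled by TMM. RNA of other cells was present as well, and some of these cells also carry caveolae. With the controls first, 9 pericyte and smooth muscle markers summed to 1005, 872, 1049 and 869 CPM, 6 fibroblast markers to 2103, 2835, 1761 and 2196 CPM, and 6 tumour epithelial markers to 1643, 2418, 2326 and 1931 CPM. All markers of these 3 lists were detected, so none was at 0. The 6 lymphatic markers summed to 541 to 623 CPM, 8 leukocyte markers to 28.0 to 45.3 CPM, 5 erythroid markers to 9.22 to 28.4 CPM and 5 adipocyte markers to 3.49 to 8.35 CPM, with Lep and Retn at 0 reads. Their part in the results below was not tested. In sorted bulk RNA, fewer cells of a type and less RNA per cell cannot be told apart. Libraries held 9364294 to 17813993 assigned reads. Control IgG replicate 2 stood apart: across genes its log2 CPM correlated with the other libraries at r = 0.945 to 0.947, against 0.977 to 0.983 among the others, and genes are not independent replicates.

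Plvap was the most abundant of the 9 genes, and the set spanned a wide range of levels. Per length of exon, Plvap averaged 1027 CPM per kilobase (SD 282 over the 4 libraries), which placed it at rank 16 of the 16945 tested genes. Cavin1 followed at 250.03 ± 57.0 CPM per kilobase (SD, n = 4 libraries), rank 85. Plvap stood above Cavin1, and Cavin1 above Ehd2, in 4 of 4 libraries, with mean ratios of 4.11 and 2.60. Then came 5 genes at closely spaced levels: Ehd2 at 96.1 ± 13.5, Cav1 at 90.1 ± 6.45, Ehd4 at 86.3 ± 12.8, Cavin3 at 73.3 ± 21.7 and Cavin2 at 68.1 ± 5.33 CPM per kilobase (SD, n = 4 libraries). Their neighbours in this order did not keep it in every library: Ehd2 was above Cav1 in 3 of 4, Cav1 above Ehd4 in 2, Ehd4 above Cavin3 in 3, and Cavin3 above Cavin2 in 1. Cav2 at 29.7 ± 6.03 and Pacsin2 at 24.2 ± 1.83 CPM per kilobase (SD, n = 4 libraries) were the lowest, yet still within the top 7.48% and 9.68% of tested genes. Cavin2 was above Cav2 in 4 of 4 libraries and Cav2 above Pacsin2 in 3. The muscle-type members of the families, which were not among the 9, had few reads: Cav3 had 0 reads in every library, and Cavin4 had 0 reads in both control libraries and 6 and 4 reads in the treated ones.

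**Figure D1:**
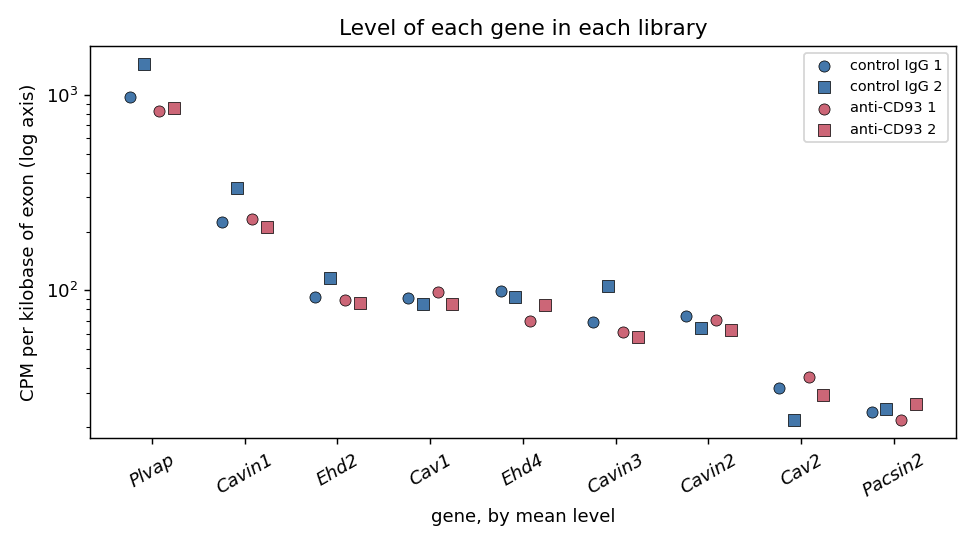
Level of each of the 9 genes in each library, in CPM per kilobase of exon on a log axis, with genes ordered by mean level; blue points are control IgG, red points anti-CD93, circles replicate 1 and squares replicate 2. Plvap and Cavin1 lie above the rest, and control IgG replicate 2 is the highest point for Plvap, Cavin1, Ehd2 and Cavin3 and the lowest for Cav2.

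The comparison asked whether anti-CD93 changed the RNA of these genes, and none of the 9 passed the test (edgeR's quasi-likelihood test, adjusted p over all tested genes from 0.812 to 0.981). DESeq2 and limma-voom also called 0 of the 9. By edgeR 0% of all tested genes passed. At an unadjusted p under 0.05, 2 of the 9 passed, Plvap and Cavin3, against 4.49% of all tested genes. The fitted log2 fold change was below 0 for 7 genes and above 0 for 2, against 50.9% below 0 over all genes. Its median over the 9 was -0.25, against -0.0092 over all tested genes. In 4 genes, Plvap, Cavin3, Ehd2 and Ehd4, both anti-CD93 libraries lay below both control libraries, a pattern that 19.7% of all tested genes showed. In 0 of the 9 did both lie above, against 20.1%. Control IgG replicate 2 was the highest of the 4 libraries for 4 of the 9 genes, against 38.7% of all tested genes, and the lowest for 1 of the 9, against 38% of all.

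Plvap (chromosome 8, 71497765 to 71511752, GRCm38, minus strand) measured 1945 and 2861 CPM in the control libraries and 1649.9 and 1709.5 CPM after anti-CD93. The control libraries differed more from each other than the lower control library differed from the anti-CD93 libraries. The group levels were 2403 ± 648 and 1679.7 ± 42.2 CPM (SD, n = 2 each), a log2 fold change of -0.52 (SE 0.21, 95% interval -1.01 to -0.021), which did not pass the test (adjusted p = 0.812 by edgeR). The log2 fold change shrank to -0.21 (adjusted p = 0.631 by edgeR) when control IgG replicate 2 was left out. It was -0.77 (adjusted p = 4.82e-04 by edgeR) when control IgG replicate 1 was left out, a fit in which the only control library was the one that stood apart and 26.8% of all tested genes passed. In each fit that leaves out a control library, here and for the genes that follow, the spread comes from the pair of anti-CD93 libraries alone, and the lone control is assumed to vary like them.

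Of the caveolins, Cav1 encodes the scaffold without which endothelial caveolae do not form, and its level was nearly flat. Cav1 (chromosome 6, 17306335 to 17341452, plus strand) measured 315 and 293 CPM in the control libraries and 339.8 and 293 CPM after anti-CD93. The groups overlapped, with a log2 fold change of 0.056 (SE 0.17, 95% interval -0.34 to 0.45). The interval leaves room for a change in either direction. Cav2 (chromosome 6, 17281185 to 17289115, plus strand) encodes the partner that assembles with caveolin-1. It measured 106 and 72.4 CPM in the controls and 120.3 and 97.4 CPM after anti-CD93. Its lowest value was that of control IgG replicate 2, and the groups overlapped. The log2 fold change of Cav2 was 0.29 (SE 0.23) with all libraries, 0.041 (SE 0.13) without control IgG replicate 2, and reached 0.59 (adjusted p = 0.0150 by edgeR) when control IgG replicate 1 was left out.

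The 3 cavins did not share one pattern. Cavin1 (chromosome 11, 100956733 to 100970887, minus strand) encodes the coat protein that caveolae need in all tissues. It measured 799.5 and 1199.8 CPM in the controls and 834 and 755 CPM after anti-CD93, so that 3 libraries lay together and control IgG replicate 2 above them. Its log2 fold change was -0.33 (SE 0.22) with all libraries, -0.011 (SE 0.10) without control IgG replicate 2, and reached -0.60 (adjusted p = 0.00202 by edgeR) when control IgG replicate 1 was left out. Cavin2 (chromosome 1, 51289126 to 51302960, plus strand) encodes a cavin that binds the membrane lipid phosphatidylserine. It measured 227 and 197 CPM in the controls and 216 and 192 CPM after anti-CD93. These groups overlapped, with a log2 fold change of -0.056 (SE 0.18), which was 0.15 when the libraries were set to equal endothelial marker levels, a scaling that moved the median of all tested genes from -0.0092 to 0.20 as well.

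Cavin3 (chromosome 7, 105480083 to 105482300, minus strand), which encodes the cavin that binds protein kinase C delta, measured 114 and 175 CPM in the controls and 102 and 96.3 CPM after anti-CD93. As with Plvap, control IgG replicate 2 was far above the other control library. The levels were 145 ± 42.7 against 99.0 ± 3.78 CPM (SD, n = 2 each), with a log2 fold change of -0.55 (SE 0.23, 95% interval -1.07 to -0.021, adjusted p = 0.812 by edgeR). It was -0.21 (adjusted p = 0.665 by edgeR) when control IgG replicate 2 was left out and -0.82 (adjusted p = 4.91e-04 by edgeR) when control IgG replicate 1 was left out. The exons of Cavin3 share 374 bases, 22.5% of its exon length, with the predicted gene Gm45667 on the other strand. Counting ignored strand, so reads from that stretch could not be told apart; Gm45667 itself was given 10, 0, 10 and 8 reads. The other 8 genes shared 0 exon bases with any other gene.

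Ehd2 and Ehd4 encode ATP-driven membrane-bending proteins, of which EHD2 forms a ring at the caveolar neck. Ehd2 (chromosome 7, 15946958 to 15967567, minus strand) measured 475 and 593 CPM in the controls and 457 and 442 CPM after anti-CD93. The groups did not overlap, but control IgG replicate 1 was close to the anti-CD93 libraries. The log2 fold change of Ehd2 was -0.25 (SE 0.18), -0.082 (SE 0.096) without control IgG replicate 2, and reached -0.40 (adjusted p = 0.0114 by edgeR) when control IgG replicate 1 was left out.

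Ehd4 was the gene of the set whose control libraries lay close together and apart from both anti-CD93 libraries. Ehd4 (chromosome 2, 120089175 to 120154606, minus strand) measured 396 and 373 CPM in the controls and 278 and 336 CPM after anti-CD93. Here the wider gap was between the anti-CD93 libraries. The levels were 385 ± 16.8 against 307 ± 40.9 CPM (SD, n = 2 each), with a log2 fold change of -0.32 (SE 0.18, 95% interval -0.73 to 0.084) that did not pass the test (adjusted p = 0.812 by edgeR). Leaving out 1 library at a time gave -0.47 to -0.19, the smallest size without anti-CD93 replicate 1, and these fits did not pass either (lowest adjusted p = 0.116 by edgeR, reached without control IgG replicate 1).

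Pacsin2 (chromosome 15, 83375607 to 83464606, minus strand), which encodes an F-BAR protein that curves the membrane and binds EHD2, measured 117 and 122 CPM in the controls and 107 and 129 CPM after anti-CD93. Both control values lay between the anti-CD93 values. Its log2 fold change of -0.021 (SE 0.18) was the smallest in size of the 9.

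**Figure D2:**
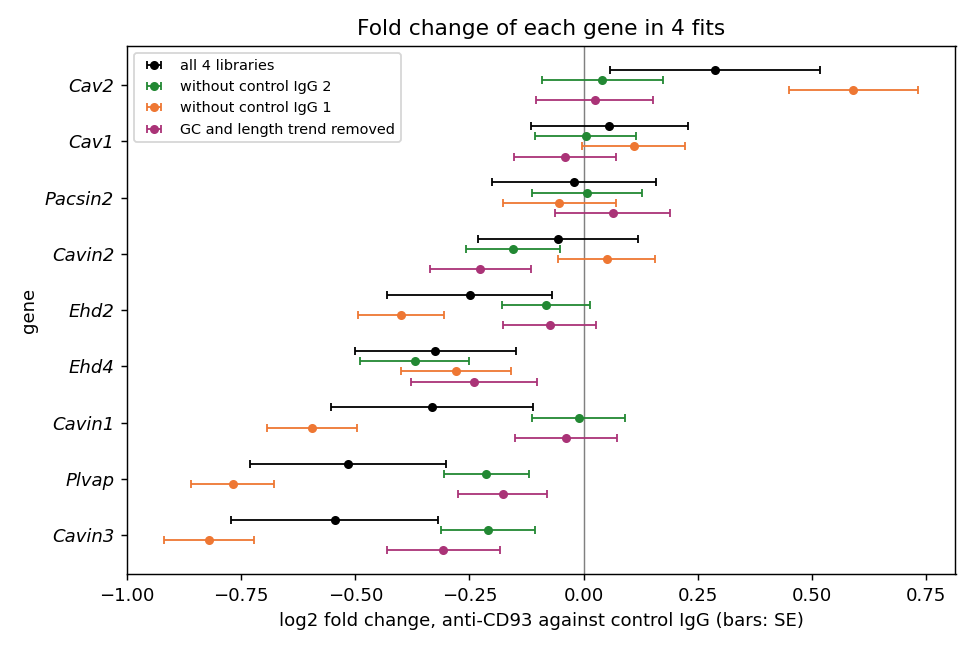
Log2 fold change of each of the 9 genes, anti-CD93 against control IgG, in 4 fits; points are fitted values and bars are 1 SE. Without control IgG replicate 2 the points of Plvap, Cavin1, Cavin3, Ehd2 and Cav2 move toward 0, without control IgG replicate 1 they move away from it, and Ehd4 stays between -0.37 and -0.24.

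Ratios within a library do not depend on scaling. The ratio of Plvap to Cav1, both per length, was 10.7 and 16.9 in the controls and 8.42 and 10.1 after anti-CD93. On the log2 scale it was lower by a difference of -0.54 with anti-CD93, with an exact 2-sided permutation p of 0.333, the smallest that 2 against 2 libraries can give. That same smallest p was reached by Cavin2, Cavin3, Ehd2 and Ehd4 over Cav1 (differences of -0.11, -0.57, -0.29 and -0.38), of 8 ratios to Cav1 examined. It means only that the groups did not overlap, so no ratio passed or could pass 0.05. All 8 ratios share the Cav1 values and are not independent of each other. The share of all tested genes that separate in the same way over Cav1 was not counted. The ratio of Cav2 to Cav1 was 0.347 and 0.255 in the controls and 0.366 and 0.343 after anti-CD93. Here control IgG replicate 2 stood alone and the other 3 libraries agreed closely. Chosen after the data were seen, the ratio of Cavin3 to Cavin1 was 0.309 and 0.314 with control IgG and 0.263 and 0.275 with anti-CD93. Here control IgG replicate 2 lay beside the other control library, and the log2 difference was -0.21. Plvap over the sort marker Pecam1, also chosen afterwards, was 3.62 and 4.79 against 3.11 and 3.22. Cavin3 over Cavin1 and Plvap over Pecam1 each had an exact permutation p of 0.333, the smallest possible, so neither could pass 0.05. Ratios to the mean log2 CPM of the 10 endothelial markers were also examined. The log2 difference was -0.28 for Plvap, -0.31 for Cavin3 and 0.18 for Pacsin2. In these genes the groups did not overlap, with an exact permutation p of 0.333 each. For the other members this ratio overlapped between the groups. The share of all tested genes that separate this way was not counted. The remaining pairs chosen afterwards overlapped between the groups. Cavin2 over Cavin1 was 0.333 and 0.193 with control IgG and 0.304 and 0.299 with anti-CD93. Ehd4 over Ehd2 was 1.06 and 0.802 against 0.777 and 0.971.

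The deviation of control IgG replicate 2 differed between the genes, broadly in step with their base composition. Against the mean of the other 3 libraries its log2 CPM was -0.57 for Cav2, -0.100 for Cavin2, -0.10 for Cav1, 0.16 for Ehd4, 0.059 for Pacsin2, 0.37 for Ehd2, 0.75 for Cavin3, 0.59 for Cavin1 and 0.70 for Plvap. In that same order the GC content of their transcripts rose: 41.1, 44.4, 46.5, 51.9, 52.1, 54.8, 56.4, 58.3 and 60.6%. Over the 9 genes, which share the library, Pearson's r was 0.95 and Spearman's rho 0.92, and over the 16615 tested genes with a GC value r was 0.47. Among all tested genes with a GC content under 45% the median deviation of that library was -0.50, and among those of 60% or more it was 0.56. Plvap, at 60.6% GC, has more GC than 97.7% of these genes, while Cav2 has more than only 8.47% of them. The fold change of the 9 genes went the other way with GC (r = -0.89 over 9 genes, and -0.38 over all genes), but without control IgG replicate 2 this was -0.33 and -0.025. Control IgG replicate 2 is part of the control mean that is subtracted in the fold change. The opposite direction is therefore not an observation separate from the deviation of that library.

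**Figure D3:**
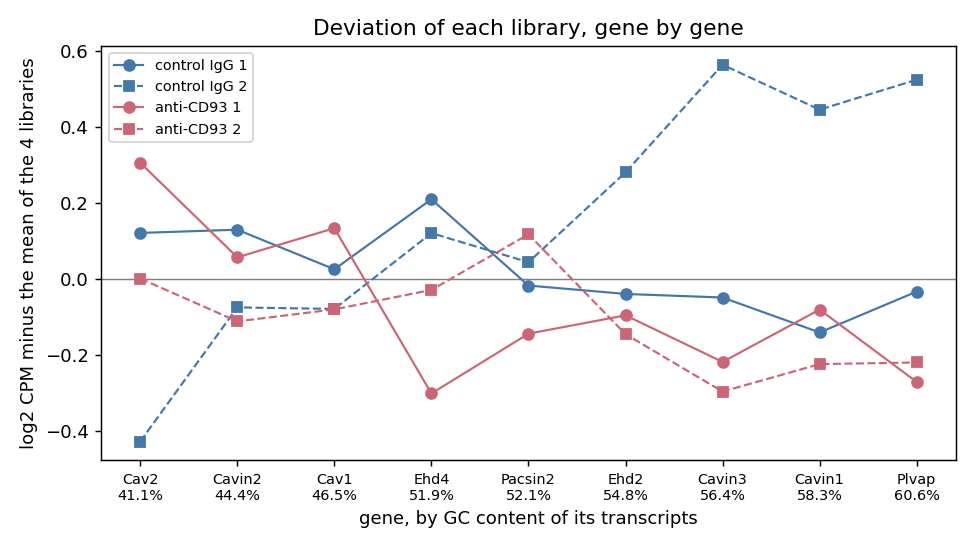
Log2 CPM of each library minus the mean of the 4 libraries, for the 9 genes ordered by the GC content of their transcripts (printed under each name); lines only join the points of a library. Control IgG replicate 2 runs from -0.43 at Cav2 to 0.52 at Plvap, with its highest point at Cavin3 (0.56), while the other 3 libraries stay within -0.30 and 0.31.

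When each library's trend with GC content and gene length was removed, an alternative added with the data in view, the deviation of control IgG replicate 2 became 0.12 for Plvap, 0.10 for Cavin1, 0.36 for Cavin3, 0.058 for Ehd2 and -0.022 for Cav2. It turned in sign for the other genes, to -0.0060 for Ehd4, 0.22 for Cavin2, 0.073 for Cav1 and -0.11 for Pacsin2, and was larger in size than before for Cavin2 and Pacsin2. The log2 fold changes in that fit were -0.18 (SE 0.098) for Plvap, -0.31 (SE 0.12) for Cavin3, -0.24 (SE 0.14) for Ehd4, -0.074 (SE 0.10) for Ehd2, -0.037 (SE 0.11) for Cavin1 and 0.024 (SE 0.13) for Cav2, all smaller in size than with the trend kept. Cavin2 went the other way, from -0.056 to -0.23 (SE 0.11). Cav1 was at -0.041 (SE 0.11) and Pacsin2 at 0.064 (SE 0.13), both with the sign turned. None of the 9 passed the test in it, with adjusted p from 0.830 to 0.981 by edgeR. The median over the 9 genes was -0.074. It was -0.082 without control IgG replicate 2.

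**Figure D4:**
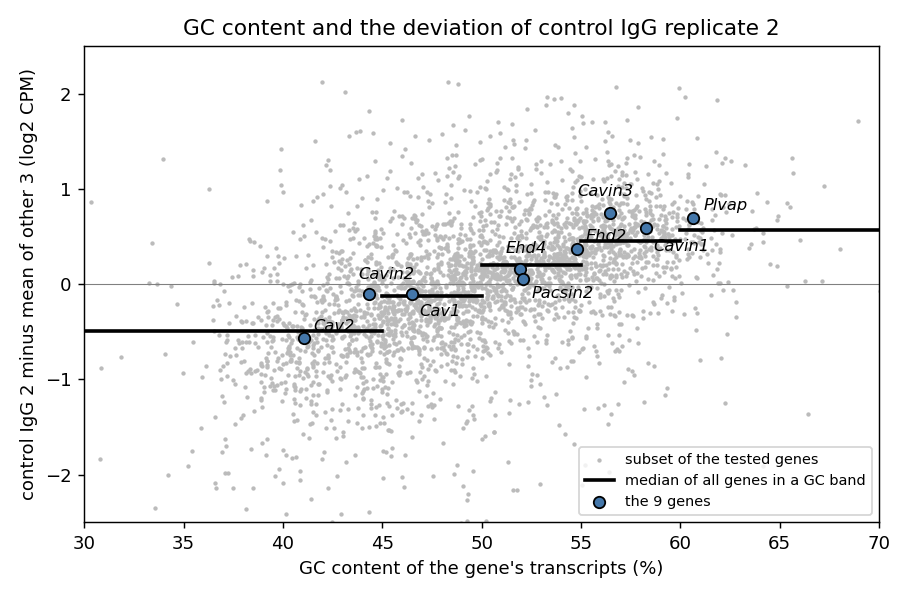
GC content of each gene's transcripts (percent) against the log2 CPM of control IgG replicate 2 minus the mean of the other 3 libraries; grey points are a subset of 3323 tested genes, 47 of them outside the axes, black bars are medians of all tested genes in a GC band, and blue points are the 9 genes. The blue points rise with the bars, from -0.57 for Cav2 to 0.70 for Plvap, and Cavin3 is the highest at 0.75.

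Other genes of caveolae and of vesicle transport across the endothelium were also without a call. The list held 23 genes, of which 20 were tested. Of these 0 passed edgeR's test in either direction, and 0 passed by DESeq2 or limma-voom. An unadjusted p under 0.05 by edgeR was found for 4 of the 20, against 4.49% of all tested genes. In direction 8 lay higher and 12 lower, against 50.9% lower over all tested genes. The median log2 fold change was -0.17, against -0.0092 over all tested genes. The fatty acid receptor gene Cd36, whose protein sits in caveolae, was at 239 and 171 CPM with control IgG and 400.4 and 296 CPM after anti-CD93 (log2 fold change 0.77, SE 0.23). The nitric oxide synthase gene Nos3, whose protein caveolin-1 holds in check, was at 187 and 237 CPM against 124 and 155 CPM (log2 fold change -0.60, SE 0.20). Another EHD gene, Ehd3, was at 139.7 and 156 CPM against 81.0 and 113 CPM (log2 fold change -0.61, SE 0.21). These had the smallest p of the list, each with adjusted p = 0.812 by edgeR. Its highest levels per length were those of the kinase gene Fyn (81.6 CPM per kilobase) and of Cd36 (77.0 CPM per kilobase). Mfsd2a, whose product holds down caveolar transport at the blood-brain barrier, had 7, 12, 8 and 5 reads and was not tested.

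Clathrin coat genes, which serve the other main route of uptake, also held none past the test. Of the 13, 0 passed by edgeR, DESeq2 or limma-voom. An unadjusted p under 0.05 by edgeR was found for 1 of the 13, against 4.49% of all tested genes. In direction 6 lay higher and 7 lower, against 50.9% lower over all tested genes. The median log2 fold change was -0.091, against -0.0092 over all tested genes. Cltb was at 94.7 and 149.7 CPM with control IgG and 80.2 and 84.1 CPM with anti-CD93, and Ap2m1 at 149 and 231 CPM against 140.5 and 138 CPM. Ap2s1 was at 41.7 and 54.0 CPM against 38.4 and 32.5 CPM. In all 3 the highest library was control IgG replicate 2. Over the 13 clathrin genes that library was the highest for 7, against 38.7% of all tested genes. It was the lowest for 6 of the 13, against 38% of all tested genes. Of the most abundant coat genes per length, Clta had a log2 fold change of -0.35 (SE 0.21) and Cltc of 0.12 (SE 0.18). Without control IgG replicate 1, 10 of the 13 clathrin genes and 11 of the 20 other caveola genes passed, as did 5 of the 9, against 26.8% of all genes.

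The genes whose pattern over the 4 libraries came nearest to Plvap were Sox13, Tubb6, Tcirg1, Dgkz and Ace, with root mean square distances of 0.0063 to 0.018 between centred log2 CPM, among 6536 genes of at least 20 CPM. Those nearest to Cav1 were Mettl14, Cops4, Herc6, Tubgcp3 and Klf11, at 0.0061 to 0.017. Within the set, Cavin3 was nearest to Plvap (0.051) and Cavin2 nearest to Cav1 (0.066). With 4 libraries such distances are a description of these libraries only.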

How the data were processed

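Per the labels' protocols, a stranded total RNA kit for small inputs was used, with paired reads of 150 bases. Raw read counts were deposited; per the file headers the authors made them with featureCounts 2.0.1 on GENCODE vM25, grouped by gene name, with no paired-end or strand option. Mates may therefore have been counted singly, which gives even counts where both mates fall in a gene. Among counts of 1 to 10, 70.0 and 74.8% were even in the control libraries and 67.9 and 66.3% in the anti-CD93 ones. Read numbers may thus exceed the number of sequenced fragments, which was not tested. STAR 2.7.5b and DESeq2 1.28.1 are named in the submitters' processing notes. The other deposited table, although called normalized, repeated these counts (0 of 221468 cells differed) and was not used further. Gene coordinates were taken from the count table (GRCm38).

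Counts were filtered with filterByExpr (minimum count 10), scaled by TMM and tested by quasi-likelihood in edgeR 4.0.16 (robust dispersion, group as the only term) in R 4.3.3, with Benjamini-Hochberg adjustment over 16945 genes and a threshold of 0.05. The SE is the log2 fold change divided by the root of the F statistic. Levels per length use the exon length in the deposited table. GC content was averaged over GENCODE vM21 transcripts, and 98.1% of tested genes had a value. DESeq2 1.42.0, limma 3.58.1 and other scalings and filters were alternatives; the script was tested on simulated data. Depth was 9364294 to 17813993 reads. With the counts halved the SE of the 9 genes was 0.18 to 0.23, against 0.17 to 0.23 with the full counts. Halving divided the counts and rounded them up without redrawing reads, so it cannot show how depth affects the spread. Deviations of same-numbered libraries from their group means had r = -0.016 across genes. With 2 pairs, and with control IgG replicate 2 standing apart, this cannot show whether the libraries were paired. The 9 genes and the lists were chosen with earlier results of these data known. Named genes were the 9; in each other list the 3 with the smallest p and the 2 with the highest level per length; and the 5 genes nearest in pattern to Plvap and to Cav1, without predicted genes.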

Additional observations from a re-analysis of the deposited data

How the results depend on the processing

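Over 16 alternatives, most of them refits of the same 4 libraries, Plvap, Cavin1, Cavin3, Ehd2 and Ehd4 stayed lower and Cav2 higher with anti-CD93. Some of these values came close to 0. Cavin1 was -0.011 without control IgG replicate 2, and Cav2 was 0.024 with the GC and length trend removed. The 5 calls among the 144 fitted values of the 9 genes all came from the fit without control IgG replicate 1; in the other fits the lowest adjusted p was 0.472. The sign turned in 10 fits, all of them of Cav1, Cavin2 or Pacsin2. Leaving out 1 library gave -0.047 to 0.16 for Cav1, -0.15 to 0.050 for Cavin2 and -0.16 to 0.11 for Pacsin2. Cav1 was -0.041 with the GC and length trend removed, and Cavin2 was -0.23 with it. The endothelial reference (libraries set to equal mean log2 CPM of the 10 endothelial markers) moved the median of all tested genes to 0.20 and the 9 genes with it: Cavin2 to 0.15, Cav1 to 0.26, Cav2 to 0.48, Plvap to -0.29, Cavin3 to -0.32, Cavin1 to -0.11, Ehd2 to -0.033 and Ehd4 to -0.12. Pacsin2 was 0.028 with no count filter, 0.18 with the endothelial reference and 0.064 with the trend removed. The median of the 9 genes moved from -0.25 to -0.033 with that reference and -0.074 with the trend removed, and leaving out 1 library gave -0.28 to -0.082. The genes called over the whole table numbered 48 with no count filter, 5 by DESeq2 and 14 with the replicate block; leaving out 1 library gave 0 to 4549. Without 1 library, 0 to 5 of the 9 genes, 0 to 11 of the other caveola genes and 0 to 10 of the clathrin genes passed. The replicate block called 0 of the 9, and with it Plvap was at -0.49. Beyond the GC values given above, the cause of these moves was not tested.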
